A study of Mus musculus with 753 samples.

Results

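The 10 genes *Fos*, *Fosb*, *Jun*, *Junb*, *Jund*, *Fosl1*, *Atf3*, *Egr1*, *Ier2* and *Dusp1* were read by name from the combined table of 24657 genes in 684 single epidermal cells of the mouse, and all 10 were among the 10644 genes that passed the filter on low values. The cells came from Gata6EGFPCreERT2 mice crossed to Rosa26-fl/STOP/fl-tdTomato mice, each allele present in 1 copy, whose clipped back skin had received 4-hydroxytamoxifen. Cells sorted as tdTomato positive (lin+) descend from cells that expressed *Gata6* when the drug was given, and tdTomato-negative cells (lin-) are all other sorted keratinocytes of the same skin, which can include *Gata6* cells that did not recombine. Both were taken from full-thickness wounds on days 6, 9 and 11 and from unwounded skin (day 0). By the study's description, day 0 skin was a biopsy distant from the wound in wounded mice, so it is not skin of uninjured animals. The study's methods name these as the mice used for days 9 and 11.

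Cells were pooled into 14 sets by lineage, day and replicate. The lin+ sets held 47 and 46 cells on day 0, 93 on day 6, 42 and 44 on day 9 and 32 and 47 on day 11. The lin- sets held 47 and 48 cells on day 0, 93 on day 6, 28 and 44 on day 9 and 26 and 47 on day 11. The labels do not name the replicate of a day 6 cell, so day 6 was 1 set per lineage. By the study's methods a day 6 replicate pooled 3 mice, and a day 9 or day 11 replicate was 1 mouse. Replicate 1 of days 0, 9 and 11 formed the first batch of the deposited annotation (222 cells). Replicate 2 with day 6 formed the second (462 cells). In the first batch each day had its own run name, so day and run cannot be told apart within it. Median depth was 1806779.5 to 5967310.5 reads per cell across sets, with a median of 1776 to 3228 genes detected. The summed keratinocyte markers took 1.79 to 5.90% of reads in a set. The immune markers took at most 0.0148%, the fibroblast markers at most 0.00581% and the endothelial markers at most 0.0120%. Melanocyte markers took 0.0601% of reads on day 6, 0.591% on day 9 and 0.414% on day 11 in the lin- sets of the second batch, and at most 0.00419% in the other sets. They came from 5 cells with 5.45 to 14.4% of their reads on these markers, against at most 0.0982% in any other cell. Without these 5 cells, an alternative added after the data were seen, 0 of the 10 genes passed in any comparison, beside 0 to 18 of 10620 genes. Of 110 values of the 10 genes 0 changed sign.

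Immediate early genes are switched on within minutes of a growth factor, wound or stress signal, without the need for new protein, and their messenger RNAs are short-lived. The products of *Fos*, *Fosb*, *Fosl1*, *Jun*, *Junb*, *Jund* and *Atf3* are leucine zipper proteins that pair to form the transcription factor AP-1 or relatives of it. In keratinocytes AP-1 dimers act in proliferation, differentiation and wound repair. The same genes are known to respond to enzymatic dissociation of a tissue and to cell sorting. Every cell sequenced here had been dissociated and sorted, so induction during cell preparation and expression in the skin cannot be told apart.

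The start regions of *Fos*, *Jun*, *Junb* and *Dusp1* are shown as examples from the 7 genes that were matched. Each runs from 250 bases before to 50 bases after the RefSeq start in build GRCm38.p6, 5′ to 3′ on the gene's strand. Capitals mark the cyclic AMP response element half-site TGACG and the AP-1 or ATF sites TGACGTCA and TGACATCA.
Fos promoter, chr12:85473640-85473939, forward strand: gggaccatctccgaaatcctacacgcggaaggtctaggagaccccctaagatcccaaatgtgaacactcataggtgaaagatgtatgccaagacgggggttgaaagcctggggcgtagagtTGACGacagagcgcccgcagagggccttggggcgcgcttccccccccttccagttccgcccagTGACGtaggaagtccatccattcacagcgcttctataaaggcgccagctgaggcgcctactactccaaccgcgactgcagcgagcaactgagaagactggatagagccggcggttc
Jun promoter, chr4:95052173-95052472, reverse strand: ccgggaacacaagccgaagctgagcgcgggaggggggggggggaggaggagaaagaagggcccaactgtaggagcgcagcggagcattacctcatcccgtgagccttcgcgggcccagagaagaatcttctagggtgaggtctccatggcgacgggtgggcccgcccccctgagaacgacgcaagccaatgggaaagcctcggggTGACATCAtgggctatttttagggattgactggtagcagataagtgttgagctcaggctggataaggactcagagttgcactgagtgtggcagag
Junb promoter, chr8:84978699-84978998, reverse strand: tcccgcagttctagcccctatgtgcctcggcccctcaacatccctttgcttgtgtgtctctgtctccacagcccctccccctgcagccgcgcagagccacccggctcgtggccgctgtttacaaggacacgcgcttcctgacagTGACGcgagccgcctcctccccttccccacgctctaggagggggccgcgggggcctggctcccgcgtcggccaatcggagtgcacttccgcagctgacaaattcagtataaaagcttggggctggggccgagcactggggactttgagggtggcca
Dusp1 promoter, chr17:26508423-26508722, reverse strand: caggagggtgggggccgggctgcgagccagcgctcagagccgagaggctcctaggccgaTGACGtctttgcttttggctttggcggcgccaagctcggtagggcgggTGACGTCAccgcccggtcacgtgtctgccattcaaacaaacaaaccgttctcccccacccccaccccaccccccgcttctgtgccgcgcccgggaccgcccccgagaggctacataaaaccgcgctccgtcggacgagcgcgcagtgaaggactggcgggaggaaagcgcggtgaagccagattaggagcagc

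The RefSeq start regions used here were matched for 7 of the 10 genes, and those of *Fosl1*, *Egr1* and *Ier2* were not analysed here. With both strands searched, TGACG was found in 5 of the 7 (*Fos*, *Fosb*, *Junb*, *Atf3* and *Dusp1*), against 20.8% of all 32851 start regions of that length. The full palindrome TGACGTCA, which contains TGACG on each strand, was found in *Dusp1*, against 1.79% of all regions. TGACATCA was found in *Jun*, against 3.62%. The TPA response element TGACTCA was in none of the 7, against 5.20% of all regions. The TATA sequence TATAAA was in *Fos* and *Junb*, against 13.6%. The CArG box of the serum response element was in none of the 7 windows, against 1.63%, and sequence further upstream was not searched. A match describes the letters only, and binding was not measured.

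Of the 10 genes 8 were read in more than 50% of the cells, and *Fosb* and *Fosl1* in fewer. At least 1 read of *Fos* was found in 61.3 to 92.3% of the cells of a set. Over all 684 cells the share was 75.7% (95% exact binomial interval 72.3 to 78.9, counting error only). The shares were 73.0% for *Egr1*, 72.5% for *Jun*, 69.6% for *Junb*, 67.0% for *Ier2*, 62.3% for *Dusp1*, 61.3% for *Jund*, 53.8% for *Atf3*, 42.4% for *Fosb* and 18.1% for *Fosl1*. A cell had reads of a median of 6 of the 10 genes. All 10 were found in 48 cells, at least 8 in 254 cells (37.1%) and none in 29 cells (4.24%). Cells with none had a median of 725 genes detected, against 2872.5 genes in cells with at least 8, so detection moved with the number of genes detected. The 4 annotated cells with under 200 genes had no read of any of the 10.

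**Figure D1:**
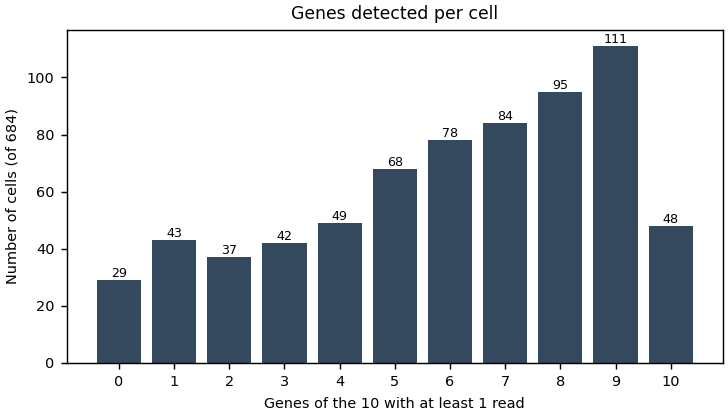
Number of cells (y axis) by how many of the 10 genes had at least 1 read (x axis), over all 684 cells. The most frequent number was 9 genes, in 111 cells, and 29 cells had none.

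Compared per length, on the deposited RPKM values of the second batch scaled to the cell total, *Fos* was the highest of the 10. Its set means had a median of 2217 scaled RPKM over 8 sets and ranged from 844 to 3935, and *Fos* ranked 38 of 14912 genes. The next were *Junb* (median 1232), *Ier2* (1100), *Dusp1* (1018), *Atf3* (891), *Jun* (592) and *Egr1* (458). *Jund* (139), *Fosb* (115) and *Fosl1* (32.0) were lowest. Every neighbouring pair in this order overlapped in its set means, and *Dusp1* alone spanned 186 to 2984.

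Together the 10 genes took 0.625 to 2.14% of a set's reads on average, and up to 7.57% of the reads of 1 cell. Set medians over cells were lower, at 0.281 to 1.43%, and a minority of cells held much of each gene's signal. In lin+ cells of day 0 replicate 1 the mean of *Fos* was 2152 RPM (reads scaled to the total of the cell, as in CPM) and the median over cells was 0.749. The 10% of cells with the highest values held 33.3 to 82.5% of the *Fos* signal of a set and 46.2 to 100% of the *Fosl1* signal. In the 14 sets the median over cells was 0 for *Fosl1* in 14 sets, for *Fosb* in 9, for *Atf3* in 5, for *Dusp1* in 2 and for *Jund* and *Ier2* in 1 each.

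*Fos*, the founding AP-1 partner of the Jun proteins, is given first as the most abundant. Its lin+ means were 2152 and 4572 RPM on day 0 (replicates 1 and 2), 2966 on day 6, 3409 and 1086 on day 9 and 3031 and 1330 on day 11. Its lin- means were 3722 and 3427 on day 0, 3248 on day 6, 5027 and 2043 on day 9 and 5309 and 2517 on day 11. In the first batch the late wounds lay above day 0 in both lineages, and in the second batch they lay below it.

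**Figure D2:**
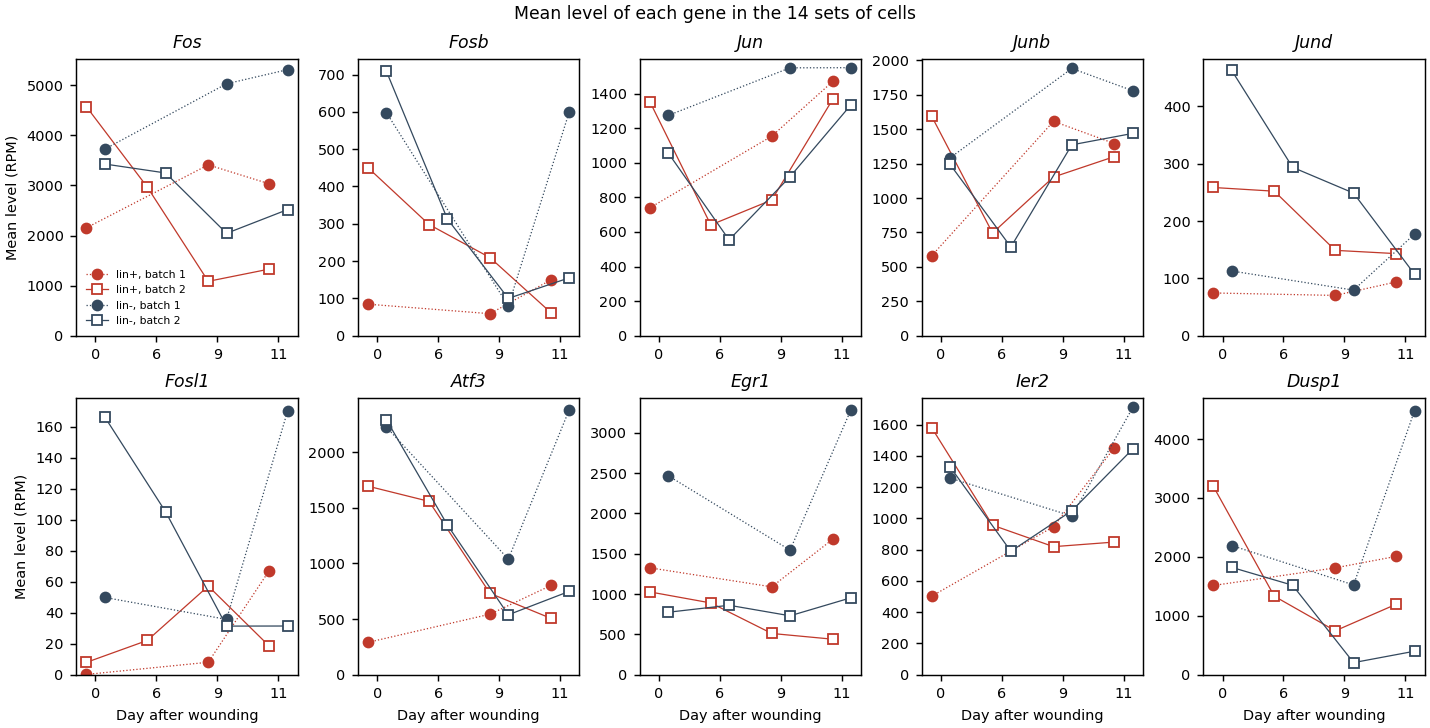
Mean RPM (y axis, linear) of each gene in the lin+ (red) and lin- (dark) sets by day after wounding (x axis, categories). Filled circles are the first batch and open squares the second, each point is 1 set, and lines join the sets of 1 batch and lineage. For *Fos* in lin+ cells the lines of the batches run opposite ways, 3031 against 2152 in the first and 1330 against 4572 in the second on days 11 and 0.

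The opposite course of the batches held for most of the 10 genes in lin+ cells. Within the first batch, the mean log2 level of days 9 and 11 lay above day 0 for 10 of 10 genes, with a median difference of 0.70. Within the second batch it lay below day 0 for 9 of 10, with a median difference of -1.02 and *Fosl1* as the exception at 1.91. *Ier2*, a nuclear protein gene of the early response, was at 1.22 in the first batch and -0.92 in the second, and *Atf3*, a stress-induced partner of AP-1, was at 1.18 and -1.48. In lin- cells 7 of 10 genes lay above day 0 in the first batch (median 0.16) and 3 of 10 in the second (median -1.05).

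Both the day 0 and the late sets differed between the batches in lin+ cells. Replicate 1 had 0.726% of its reads on the 10 genes and at least 8 of them in 17.0% of its cells, while replicate 2 had 1.57% and 58.7%. The lin- day 0 sets were closer, with 1.52 and 1.33% of reads. The late sets were higher in the first batch, at 1.07 and 1.22% in lin+ and 1.38 and 2.14% in lin- cells, than in the second, at 0.625 and 0.721% in lin+ and 0.725 and 0.916% in lin- cells. Other immediate early genes, a list of 38 such as *Zfp36* and *Nr4a1*, were also lower in replicate 1, with 0.567% of reads in lin+ day 0 replicate 1 and 1.70% in replicate 2. In the lin- day 0 sets that list also differed, with 1.12 and 2.02%, where the 10 genes were close. In the late sets that list took 0.886 and 1.24% in lin+ and 1.10 and 1.17% in lin- cells of the first batch. In the second it took 1.12 and 1.23% in lin+ and 1.02 and 1.11% in lin- cells. Its batches thus overlapped in the late sets, where those of the 10 genes did not. The 17 heat shock genes took 0.625 and 0.841% in the lin+ day 0 sets. The part of cell preparation in these gaps was not tested.

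The question of whether the genes differ between late wounds and unwounded skin was tested with limma on the set means, with 1 spread shared by all sets. In lin+ cells 0 of the 10 genes passed an adjusted p of 0.05 for days 9 and 11 against day 0, beside 0.0939% of all genes. At an unadjusted p of 0.05, 1 of the 10 passed, beside 10.1% of all genes. This was *Fosl1*, which encodes the AP-1 partner FRA1, with a log2 difference of 2.87 (SE 1.11, adjusted p = 0.414). It was 0.98 without day 0 replicate 1 and 4.75 without day 0 replicate 2. The lowest value was that of *Fosb*, at -1.09. The median of the 10 was -0.47, against 0.15 over all genes tested.

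In lin- cells 0 of 10 passed as well, beside 0.188% of all genes, and 2 of 10 passed unadjusted, beside 12.8%. *Fosb*, another Fos family partner, had the lowest value, at -2.23 (SE 0.776, limma adjusted p = 0.272). Its lin- means were 79.9 and 100.1 RPM on day 9 and 600.2 and 155 on day 11, against 598 and 709 on day 0. The day 11 value of replicate 1 was thus close to day 0 of the same batch, and the other 3 late sets lay below both day 0 sets. *Atf3* was at -1.44 (SE 0.640, adjusted p = 0.383). Its lin- means were 1039 and 538 on day 9 and 2382 and 749 on day 11, against 2225 and 2292 on day 0, again with 3 of 4 late sets below. Cluster 4, described below, held 66.4 and 44.2% of the lin- *Atf3* signal of day 0, and without it the value was -0.82. Leaving out 1 mouse set gave -3.03 to -1.43 for *Fosb* (without day 11 replicate 1 and replicate 2) and -1.99 to -0.89 for *Atf3* (without the same sets). The median of the 10 was -0.60, against 0.11 over all genes, and the highest value was 0.12 for *Junb*.

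**Figure D3:**
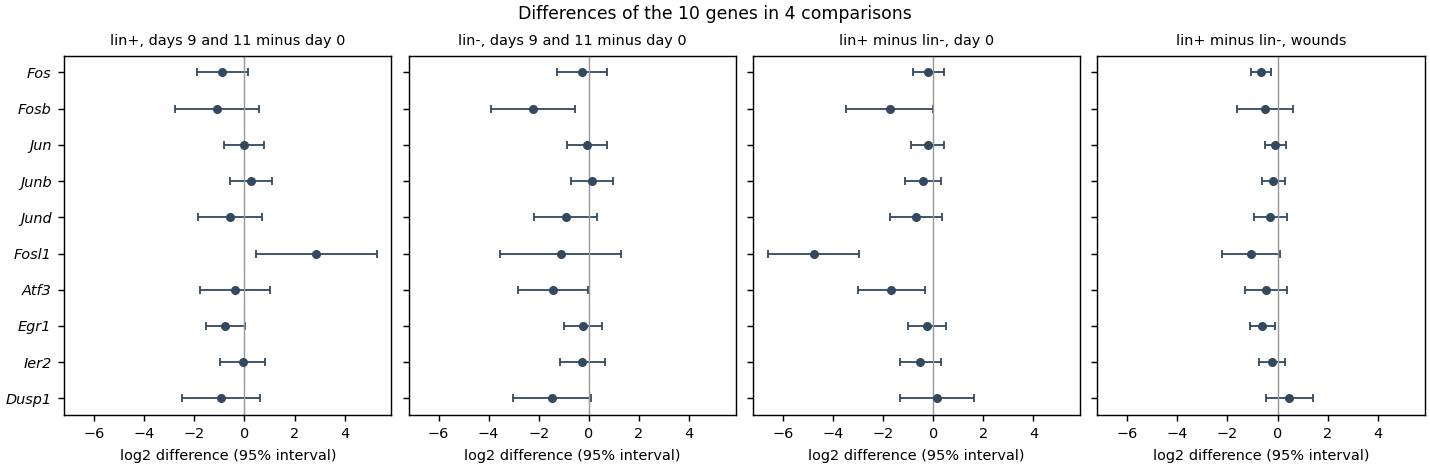
Log2 differences (x axis) of the 10 genes with 95% confidence intervals from limma, for days 9 and 11 minus day 0 in lin+ and lin- cells and for lin+ minus lin- on day 0 and in wounds. Points are estimates over the sets and bars are intervals, and no value passed an adjusted p of 0.05. The widest departures were *Fosl1* at -4.77 in lin+ minus lin- on day 0 and at 2.87 in lin+ cells.

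Day 6, the earliest wound sampled, gave no call either. Against day 0, 0 of 10 genes passed in lin+ cells, beside 0% of all genes, and 0 of 10 in lin- cells, beside 0.0376%. The values ran from -0.62 (*Jun*) to 2.54 (*Fosl1*) in lin+ cells and from -1.13 (*Fosb*) to 0.27 (*Dusp1*) in lin- cells, and none passed unadjusted. *Jun* and *Junb*, which encode the basic AP-1 partners, were low on day 6 within the second batch. *Jun* had 1353, 641, 785 and 1367 RPM in the lin+ sets, against 1057, 554, 919 and 1335 in the lin- sets, on days 0, 6, 9 and 11 of that batch. *Junb* had 1595, 746, 1153 and 1301 in the lin+ sets, against 1246, 644, 1386 and 1469 in the lin- sets. Day 6 was the lowest day of that batch for both genes in both lineages, with 1 set a day. Cluster 2, a cluster with few genes detected that is described below, held 70 of the day 6 cells, which numbered 93 per lineage. Over all alternatives, which include leaving out cluster 2, the lin- difference from day 0 was -1.81 to -0.68 for *Jun* and -1.68 to -0.56 for *Junb*. In lin+ cells neither gene kept its sign.

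The late wounds against day 6 gave 0 of 10 in lin+ cells, beside 0.00939% of all genes, and 0 of 10 in lin- cells, beside 0.0376%. The lowest and highest values were -1.58 (*Fosb*) and 0.70 (*Junb*) in lin+ cells and -1.72 (*Dusp1*) and 1.08 (*Junb*) in lin- cells. Day 11 against day 9 gave 0 of 10 in lin+ cells, beside 0% of all genes, with values of -0.39 (*Fosb*) to 0.53 (*Fosl1*). It gave 0 of 10 in lin- cells, beside 0% of all genes, with values of -0.06 (*Jund*) to 1.74 (*Fosb*). None of these values passed unadjusted. In each of the 11 comparisons edgeR on summed reads also called 0 of the 10 genes, beside 0 to 5 of 17912 genes.

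*Dusp1*, which encodes a phosphatase that switches off MAP kinases, had the widest spread among the abundant members. Its lin+ means were 1515 and 3197 RPM on day 0, 1332 on day 6, 1814 and 745 on day 9 and 2009 and 1197 on day 11. Its lin- means were 2193 and 1822 on day 0, 1519 on day 6, 1524 and 205 on day 9 and 4482 and 399 on day 11. On days 9 and 11 the lin- replicates thus stood far apart, while on day 0 they were close. Over the same skin the lin+ sets of the second batch were above the lin- sets on day 9 and on day 11.

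*Egr1*, a zinc finger transcription factor of the same response, differed between the batches without overlap. Its set means were 440 to 1026 RPM in the second batch and 1089 to 3287 in the first, and it was lower in the second in 6 of 6 pairs of the same lineage and day. No other of the 10 genes separated the batches. *Jund*, the most constitutive Jun gene, leaned the other way and was lower in the second batch in 1 of 6 pairs. Its set means ran from 70.3 to 463. *Ier2* ran from 502 to 1710 and *Junb* from 580 to 1941, each lowest in lin+ day 0 replicate 1.

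On day 0 the lineages were compared within the same skin, with the mouse set as a block. Of the 10 genes, 0 passed for lin+ against lin- cells, beside 0.169% of all genes, and 2 passed unadjusted, beside 13.9%. *Fosl1* had the lowest value of the 10, at -4.77 (SE 0.810, limma adjusted p = 0.0710). Its lin+ means were 0.179 and 7.95 RPM on day 0, 22.1 on day 6, 8.04 and 57.2 on day 9 and 67.2 and 18.5 on day 11. Its lin- means were 49.9 and 166 on day 0, 105 on day 6, 35.7 and 31.4 on day 9 and 170.0 and 31.4 on day 11. On day 0 both lin+ sets lay below both lin- sets, and over the wound sets the lineages overlapped.

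The shares of cells gave the same order. *Fosl1* was read in 1 of 47 and 4 of 46 lin+ cells on day 0, against 8 of 47 and 20 of 48 lin- cells. In lin+ cells of the first replicate it rested on 54 reads of 1 cell. With every cell thinned to 500000 reads, the lin+ shares were 2.13 and 6.52%, against lin- shares of 18.2 and 39.6%. Cells of the deposited cluster 4 held 94.4 and 81.7% of the lin- signal in replicates 1 and 2. Without that cluster the lin+ means were 0.183 and 8.31, against lin- means of 3.97 and 52.1, and the log2 difference was -2.18 (adjusted p = 0.263), an alternative added after the data were seen. Over all alternatives the value ran from -5.96 to -1.97, with adjusted p of 0.0535 to 0.386.

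*Atf3* was at -1.68 for lin+ against lin- cells on day 0 (SE 0.592, limma adjusted p = 0.258). Its lin+ means were 291 and 1694 RPM, against 2225 and 2292 in lin- cells, so that both lin+ sets lay below both lin- sets. Without cluster 4 the value was -1.09. It was -0.45 without day 0 replicate 1 and -2.92 without day 0 replicate 2. The highest of the 10 was *Dusp1*, at 0.14. The median of the 10 was -0.45, against -0.03 over all genes.

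In the wounds 0 of 10 genes passed for lin+ against lin- cells, beside 0.141% of all genes, and 2 passed unadjusted, beside 6.67%. *Fos* was at -0.66 (SE 0.173, limma adjusted p = 0.333), with lower means in lin+ cells in 5 of 5 mouse sets. The differences by mouse set were -0.13 on day 6, -0.56 and -0.91 on day 9 and -0.81 and -0.92 on day 11. Among cells of the IFE-B identity alone the value was 0.06. *Egr1* was at -0.60 (SE 0.216, adjusted p = 0.581) and lower in lin+ cells in 4 of 5 mouse sets. The range of the 10 was -1.08 (*Fosl1*) to 0.47 (*Dusp1*), with a median of -0.38 against -0.01 over all genes.

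Whether the late change differed between the lineages was tested as an interaction. Of the 10 genes 0 passed, beside 0.00939% of all genes, and 1 passed unadjusted, beside 9.90%. *Fosl1* was at 3.99 (SE 0.992, limma adjusted p = 0.360), and the lowest value was -0.60 for *Fos*. Without cluster 4 the *Fosl1* value was 1.52.

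The cells were also described by the identities that the authors deposited, named IFE for the interfollicular epidermis, uHF for the upper hair follicle, OB for the outer bulge and SG for the sebaceous gland. Identities and clusters were drawn from the same cells over all genes, so their levels carry no test. Among sets with at least 5 cells of each, *Fos* was higher in OB than in IFE-B cells in 8 of 9 sets, with a median log2 difference of 1.13. In uHF-I cells *Fos* was higher than in IFE-B cells in 1 of 8 sets, with a median of -0.67. *Atf3* was likewise higher in uHF-I than in IFE-B cells in 1 of 8 sets (median -0.97), and *Fosl1* in 0 of 8 (median -1.56). *Jun* and *Junb* were higher in uHF-I cells in 5 of 8 sets each, with medians of 0.20 and 0.21. Lin+ cells made up 96 of the 115 uHF-I cells and 31 of the 121 OB cells, so identity and lineage were unevenly mixed.

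With cells pooled over sets, sebaceous gland cells were few but stood low for *Dusp1*. It was read in 14.3% of the 7 SG cells of the first batch and 12.5% of the 16 of the second, against 70.4 and 56.7% of IFE-B cells. The exact binomial intervals of the SG shares were 0.361 to 57.9% and 1.55 to 38.3%. Of the 16 cells 13 were lin- and 8 came from days 9 and 11. The lin- sets of those days and batch had *Dusp1* in 43.2 and 44.7% of cells. *Fosl1* was read in none of the 7 and 16 SG cells, which counting alone leaves compatible with shares of up to 41.0 and 20.6% (exact binomial upper bounds). In the second batch *Fosl1* was read in 4 of 5 IFE-DI cells and 2 of 2 IFE-DII cells, against 26.4% of IFE-B cells. In the first batch it was read in 0 of 3 IFE-DI cells, against 19.0% of IFE-B cells. In the first batch the SG cells had a median of 0.191% of reads on the 10 genes, the OB cells 0.589% and the IFE-B cells 1.14%. In the second batch the SG cells had 0.0718%, the OB cells 1.23% and the IFE-B cells 0.507%, so that SG was lowest of the 3 in both batches while OB and IFE-B changed order.

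**Figure D4:**
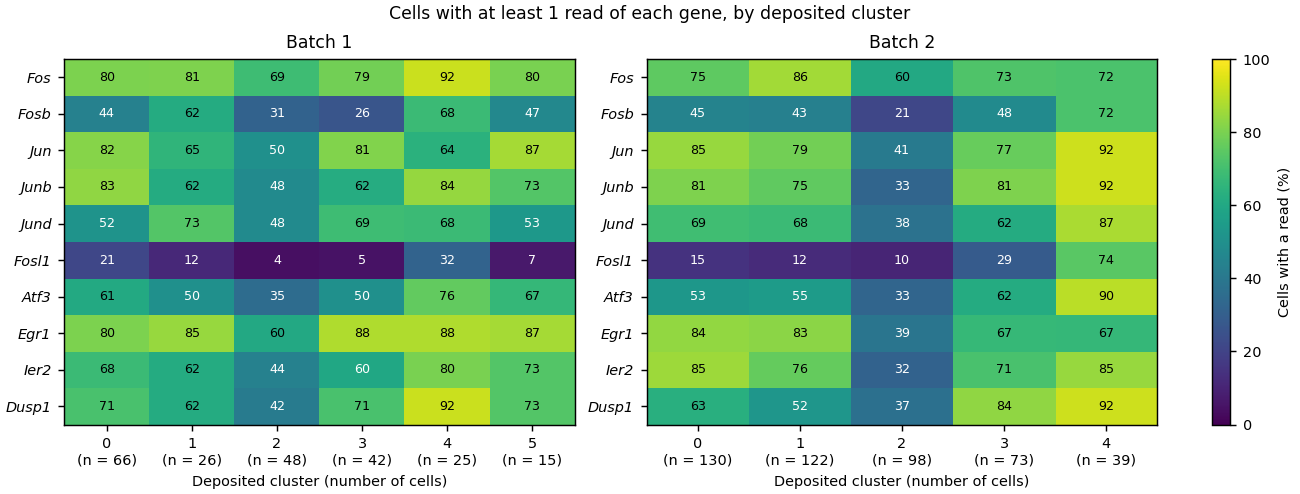
Percent of cells with at least 1 read of each gene (colour and printed value) by deposited cluster (columns, with the number of cells) in each batch. With cells pooled over sets, cluster 2 had the lowest share of every gene but *Fosb* in both batches, and cluster 4 of the second batch held *Fosl1* in 74.4% of its cells.

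Clusters 2 and 4 marked the ends of the range of detection and of the median share of reads. Cluster 2 held 146 cells with a median of 1347 genes detected and 2522360 reads. The 10 genes took a median of 0.184% of their reads, 12.3% of the cells had at least 8 of them, and 26 of the 29 cells with none were in this cluster. Of its cells 58 came from day 0, 70 from day 6 and 18 from days 9 and 11. Within sets its share of cells with *Fosl1* was higher than that of cluster 1 in 3 of 4 sets, with a median log2 ratio of 2.23. Set means did not always follow detection. The cluster 2 mean of *Fos* was above that of cluster 3 in 3 of 5 sets (median log2 difference 0.88), and that of *Dusp1* in 1 of 5 (-1.27). Cluster 4 held 64 cells, all IFE-B, of which 10 were lin+ and 54 lin-, with a median of 2438.5 genes. At least 8 of the 10 genes were found in 65.6% of them, and the median was 1.17% of reads. With cells pooled over sets, *Fosl1* was read in 32.0% of cluster 4 cells in the first batch, against 4.17 to 21.2% in the other clusters. In the second batch it was read in 74.4%, against 10.2 to 28.8%. Within sets its share in cluster 4 was above that in cluster 0 in 1 of 2 sets (log2 ratios -0.31 and 2.47). Its share in cluster 2 was above that in cluster 4 in 0 of 3 sets. *Dusp1* was read in 92.0 and 92.3% of cluster 4 cells.

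Cluster 1 was high for *Fos* in most sets. Within sets *Fos* was higher in cluster 1 than in cluster 0 in 5 of 6 sets (median log2 difference 1.05) and *Junb* in 5 of 6 (0.63). *Fosb* was higher in 4 of 6 (1.90) and *Atf3* in 4 of 6 (1.87). *Dusp1* was higher in 3 of 6, with a median of -0.60. The genes thus did not order the clusters alike.

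Within a set, cells high in one of the genes tended to be high in others. Spearman's rho over the cells of a set, taken as the median over the 14 sets, was highest for *Fos* and *Egr1*, at 0.65 (0.50 to 0.81 in single sets). It was 0.60 for *Fos* and *Dusp1*, 0.57 for *Egr1* and *Ier2*, and 0.56 for both *Fos* with *Atf3* and *Fosb* with *Atf3*. Of the 45 pairs 37 were above 0 in every set where both genes were read, and 24 had a median above 0.4. *Fosl1* stood outside, with a median of 0.16 with the other genes and 0.0029 with *Fos*. Over the cells of a batch its rho with *Fos* was 0.24 in the first and -0.12 in the second. With *Atf3* it was 0.38 and 0.25. The median of *Fosl1* over cells was 0 in all 14 sets, and such ties limit its rho. *Jund* was intermediate, at 0.29. These values are descriptions, since cells of a set share animals, plates and library preparation.

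**Figure D5:**
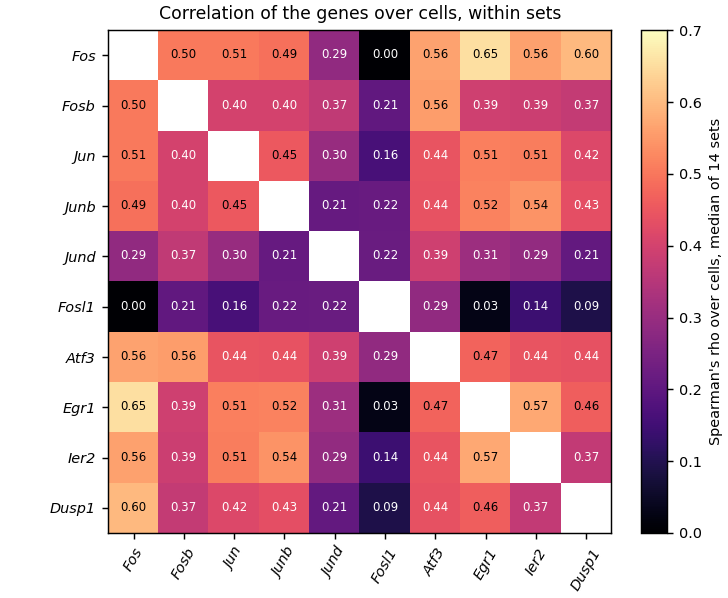
Spearman's rho between each pair of the 10 genes over the cells of a set, shown as the median over the 14 sets (colour and printed value). *Fos* and *Egr1* had the highest value, 0.65, and the row of *Fosl1* had the lowest.

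The summed level of the 10 genes in a cell followed other immediate early genes more than depth. Its rho with the cell's reads had a median of 0.07 over the 14 sets (-0.16 to 0.45), and with the number of genes detected 0.13 (-0.18 to 0.34). With the 38 other immediate early genes it was 0.70 (0.47 to 0.80) and above 0 in 14 of 14 sets. With the 17 heat shock genes, such as *Hspb1* and *Dnajb1*, it was 0.38 (-0.05 to 0.59) and above 0 in 13 of 14. The heat shock genes took 0.5003 to 0.841% of a set's reads, a narrower range than the 0.567 to 2.02% of the other immediate early genes.

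Among 3171 genes read in at least 20% of cells of each batch, the 10 genes with the pattern most like the summed level were ranked by the lower of the 2 batch values of rho. *Zfp36*, which encodes a protein that promotes decay of messenger RNAs, came first (0.74 in the first batch and 0.61 in the second). *Btg2* (0.63 and 0.54), the orphan nuclear receptor gene *Nr4a1* (0.63 and 0.52) and *Klf6* (0.50 and 0.48) followed. The next were *Gm6485* and an unnamed row with the identifier 666295, then *Ppp1r15a*, *Klf4*, *Sik1* and *Nfkbia*, with lower values of 0.43 to 0.35. Of the 10, 7 were on the list of other immediate early genes.

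The wider pathway was tested in the same fits. Of the other lists, 37 of 38 immediate early genes, 14 of 18 AP-1 and related leucine zipper genes, 20 of 23 MAP kinase and serum response factor genes, 14 of 18 dual specificity phosphatase genes and 17 of 17 heat shock genes passed the filter. None of their genes passed an adjusted p of 0.05 in limma in any of the 11 comparisons. The only gene of any list that passed was the keratinocyte marker *Krt79*, a keratin of the hair follicle infundibulum. It was higher in lin+ than in lin- cells on day 0 by 3.30 (SE 0.364, limma adjusted p = 0.0182) and in the wounds by 2.25 (SE 0.230, adjusted p = 0.00891).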

How the data were processed

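Single epidermal cells were profiled by Smart-seq2, which carries no molecular identifiers. Exact binomial intervals on shares of cells cover counting error only, and limma intervals rest on the spread between sets. Per the labels' processing notes, reads were handled by the authors with Trimmomatic 0.27, STAR 2.2, featureCounts and Seurat 3.2.2 on GRCm38 (mm10). The deposited combined table held read counts in the first batch and RPKM values in the second, each made by the authors. Second-batch reads were recovered from RPKM and gene length, and 99.99% of values came out whole within 0.02 (tested below 200 reads). Levels are RPM (reads scaled to the cell total), averaged over the cells of a set. The deposited identities and clusters were used, and 747 further per-sample columns were not used.

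Tests used limma 3.58.1 (R 4.3.3) on log2(set mean of the scaled deposited value + 1), scaled by the median of ratios within a batch, for genes with a scaled value (on the RPM scale) of at least 10 in at least 2 sets. Fits over time had batch as covariate and fits between lineages had the mouse set as a block, since both were sorted from 1 skin. The design assumed reads and RPKM to be mixed, as found. P-values were adjusted by Benjamini-Hochberg over 10644 genes, and fold changes understate low genes. edgeR 4.0.16 on summed reads was an alternative. P-values measure the spread between mouse sets. Day 6, with 1 set per lineage, adds no spread of its own, so its p-values rest on the spread of the other days. By the study's methods day 0 skin came from mice of the late wounds, which the labels do not match to wounds. Day 0 and wound sets were thus fitted as separate, and mice shared between them were not modelled. All 10 genes were named in every comparison. Of the other lists up to 3 genes per direction past 0.05 with a scaled value of at least 20 were named, and the 10 genes most like the summed level were named. The genes and lists were chosen with earlier results of these data known. Scripts were tested on simulated data.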

Additional observations from a re-analysis of the deposited data

How the results depend on the processing

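Under 20 alternatives, 4 of them chosen after seeing the data (cells under 200 genes, cluster 2, cluster 4 and cells high in melanocyte markers left out), 0 of the 10 genes passed in any comparison, with a lowest adjusted p of 0.0535 (*Fosl1*, lin+ against lin- at day 0, without day 0 replicate 2). The calls over all genes varied between the alternatives. With the mean of log values 1485 of 10644 genes passed for lin+ late against day 0 and 1769 for lin-. The main fit called 10 and 20. Of 2050 values of the 10 genes 193 had the opposite sign, and 34 of 110 kept 1 sign throughout. Without the replicate block, 0 of 10 passed in the 3 comparisons that involve both lineages, beside 2 to 15 of 10644 genes. In the 8 comparisons over time the block was left out together with a change to recovered reads. There 0 of 10 passed, beside 0 or 1 of 11207 genes in a comparison. Deviations of the paired lin+ and lin- sets correlated at -0.215 (day 0), -0.101 (day 11) and -0.00892 (day 9). In the fit over time the deviations balance out within a batch, which pulls such values below 0. They cannot show whether the sets are paired, and the pairing rests on shared skin alone. For the following values the cause was not tested. With the mean of log values *Dusp1* was -0.86 in lin- at day 6 against day 0, 0.20 in lin- late against day 6 and -0.0213 in lin+ against lin- at day 0, *Fosb* was 0.0358 in lin+ at day 11 against day 9, and the difference in late change was 0.30 for *Fos*. Without the block on recovered reads *Dusp1* was -0.76 in lin- at day 6 against day 0. With IFE-B cells alone *Junb* was -0.0907 in lin- late against day 0, *Fosb* 1.06 in lin+ and *Jund* 0.98 in lin- at day 11 against day 9, *Dusp1* -0.17 in lin+ against lin- at day 0 and *Fos* 0.0582 in the wounds. Without cluster 2 *Junb* was -0.29 and *Dusp1* -0.36 in those comparisons. In edgeR *Jund* was 0.32 in lin- at day 11 against day 9. Leaving out 1 mouse set gave -2.47 to 0.29 for *Fosb* in lin+ and -0.10 to 0.34 for *Junb* in lin- late against day 0, -1.18 to 0.22 for *Jun* in lin+ and -0.28 to 1.69 for *Dusp1* in lin- at day 6 against day 0. At day 11 against day 9 it gave -1.61 to 0.83 for *Fosb* and -1.31 to 2.37 for *Fosl1* in lin+ and -1.25 to 1.13 for *Jund* in lin-, and at day 0 -0.52 to 0.81 for *Dusp1* between the lineages. With cell totals alone the median of all genes in lin- late against day 6 was 0.35, against -0.000127. With 2 sets a day at most, the 95% intervals were 0.779 to 7.00 wide on the log2 scale, which limits what the comparisons can show.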
